A study of Homo sapiens with 32 samples.

Results

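The ATF4 stress response genes described here are ATF4 and 9 genes that are commonly read as its targets or partners, namely ATF3, DDIT3, TRIB3, ASNS, CHAC1, SESN2, DDIT4, PSAT1 and PHGDH. They were chosen by name, as the rows of the count table whose Ensembl identifier carries one of these symbols in GENCODE release 44. The table held 17788 genes, the rule found 10 of them, and all 10 were among the 14865 genes abundant enough for testing. Transcript levels had been measured by RNA sequencing in 32 libraries of MCF10A, an immortalised line of human mammary epithelium that does not form tumours, to ask how loss of JUNB function affects the transcriptional response to the cytokine TGFβ1. JUNB belongs to the AP-1 family of transcription factors. Clones 27 and 2 carried wild-type JUNB (WT), whereas clones 1 and 65 carried an extended CRISPR/Cas9 deletion in JUNB (mut). A shortened JUNB polypeptide was still made in the edited clones. Each clone received solvent (BSA in PBS) for 72 h, or 5 ng/ml TGFβ1 for 6, 24 or 72 h, in 2 replications each. All samples were harvested at the same time after seeding. The design makes 8 groups of 4 libraries. All cells grew in medium with horse serum, EGF, hydrocortisone, cholera toxin and insulin, and each clone came from a single cell, so that with 2 clones per genotype the effect of the edit and differences between clones cannot be told apart. The libraries of 1 clone with 1 replication number form a series, named by both numbers (65-2 is clone 65, replication 2).

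ATF4 is a basic leucine zipper (bZIP) transcription factor at the end of the integrated stress response. Kinases that sense unfolded proteins, missing amino acids, missing heme or viral RNA phosphorylate the translation factor eIF2α, which lowers protein synthesis in general and lets ATF4 mRNA be translated. ATF4 protein then activates genes for amino acid synthesis and uptake, redox control and, with its partner DDIT3 (CHOP), for cell death. Since this control acts on translation, the ATF4 transcript level does not measure ATF4 protein.

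Of the bZIP factors, ATF4 lies at chr22:39519695-39522683 (plus strand), ATF3 at chr1:212565334-212620777 (plus strand) and DDIT3 at chr12:57516588-57521737 (minus strand), in GRCh38 coordinates. The feedback inhibitor TRIB3 lies at chr20:362835-397559 (plus strand), and CHAC1, whose product degrades glutathione, at chr15:40952962-40956512 (plus strand). The genes of amino acid synthesis are ASNS at chr7:97851677-97872542 (minus strand), PSAT1 at chr9:78297125-78330093 (plus strand) and PHGDH at chr1:119648411-119744218 (plus strand). SESN2 at chr1:28259518-28282491 (plus strand) and DDIT4 at chr10:72273919-72276036 (plus strand) encode inhibitors of the growth kinase mTORC1. DDIT3 overlaps MARS1, MBD6 and MIR616 on the genome. Since the library kit keeps no strand, reads in the shared stretches could belong to any of the overlapping genes.

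ATF4 binds DNA together with C/EBP proteins at composite sites with the core letters TGATGNAA. The 250 bases upstream of the RefSeq start sites (GRCh38.p14) were searched for this core on both strands, and 3 of the 10 genes held it, against 3.89% of 27305 genes with such a window. The stretches around these matches are shown because they are the places in the members' promoters that carry the core. They are written 5′ to 3′ on the strand of the gene, with the match in capitals, at chr7:97872429-97872516 for ASNS (minus strand), chr15:40953222-40953309 for CHAC1 (plus strand) and chr1:212565176-212565263 for the upstream start site of ATF3 (plus strand):
ASNS: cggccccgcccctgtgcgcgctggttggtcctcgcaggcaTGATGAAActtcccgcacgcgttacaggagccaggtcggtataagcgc
CHAC1: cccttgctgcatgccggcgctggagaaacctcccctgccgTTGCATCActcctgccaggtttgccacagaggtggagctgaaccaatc
ATF3: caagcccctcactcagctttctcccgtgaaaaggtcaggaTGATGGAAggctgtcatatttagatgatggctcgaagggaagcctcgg
The first base of the match lies at position -68 from the start site in ASNS, -209 in CHAC1, where the core reads on the other strand, and -191 in ATF3. The core was absent from these windows in the other 7 genes, which says nothing about sites elsewhere. The match is a description of letters and not a measurement of binding.

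Library totals lay between 39702412 and 54651906 counts, so that 3 counts corresponded to 0.0549 to 0.0756 counts per 1000000 counts of a library (CPM). The lowest member value, ATF3 in mut 72 h 65-1, rested on 30 counts. JUNB transcript was present in every group, at 97.6 ± 12.9 CPM (SD, n = 4) in WT solvent, 112 ± 47.9 CPM in mut solvent, 169 ± 5.78 CPM in WT at 72 h and 236 ± 96.9 CPM in mut at 72 h, and therefore did not check the genotype labels. All 5 markers of basal mammary epithelium (KRT5, KRT14, KRT17, TP63 and CDH1) were found in every library, with a summed level of 5485 to 14336 CPM. Of 8 markers of leukocytes, endothelium and fibroblasts, PTPRC and CD3E were at or near 0, and PECAM1, CDH5 and LUM had no row in the count table. The remaining CD68, DCN and PDGFRB brought the summed level to 13.7 to 45.4 CPM.

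Before the comparisons, 1 feature of the mut libraries has to be described, because it touches nearly every result. In both mut clones, all 10 genes were higher in replication 2 than in replication 1 when the 4 libraries of a series were summed, and both replication 2 series lay above both replication 1 series (the plot of replication 1 and 2 of each clone). CHAC1 had 23.1 CPM in series 1-1 and 18.3 CPM in 65-1, against 52.9 CPM in 1-2 and 58.4 CPM in 65-2. DDIT3 had 6.02 and 4.76 CPM in the replication 1 series of clones 1 and 65, against 12.96 and 15.3 CPM in their replication 2 series. The WT series showed no such order: CHAC1 went from 15.7 to 14.4 CPM in clone 27 and from 12.9 to 21.0 CPM in clone 2. Over the 80 combinations of gene, mut clone and treatment, replication 2 was the higher in 76, and over the 80 of the WT clones in 45. The share of all genes with this order of series is not given here.

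**Figure D1:**
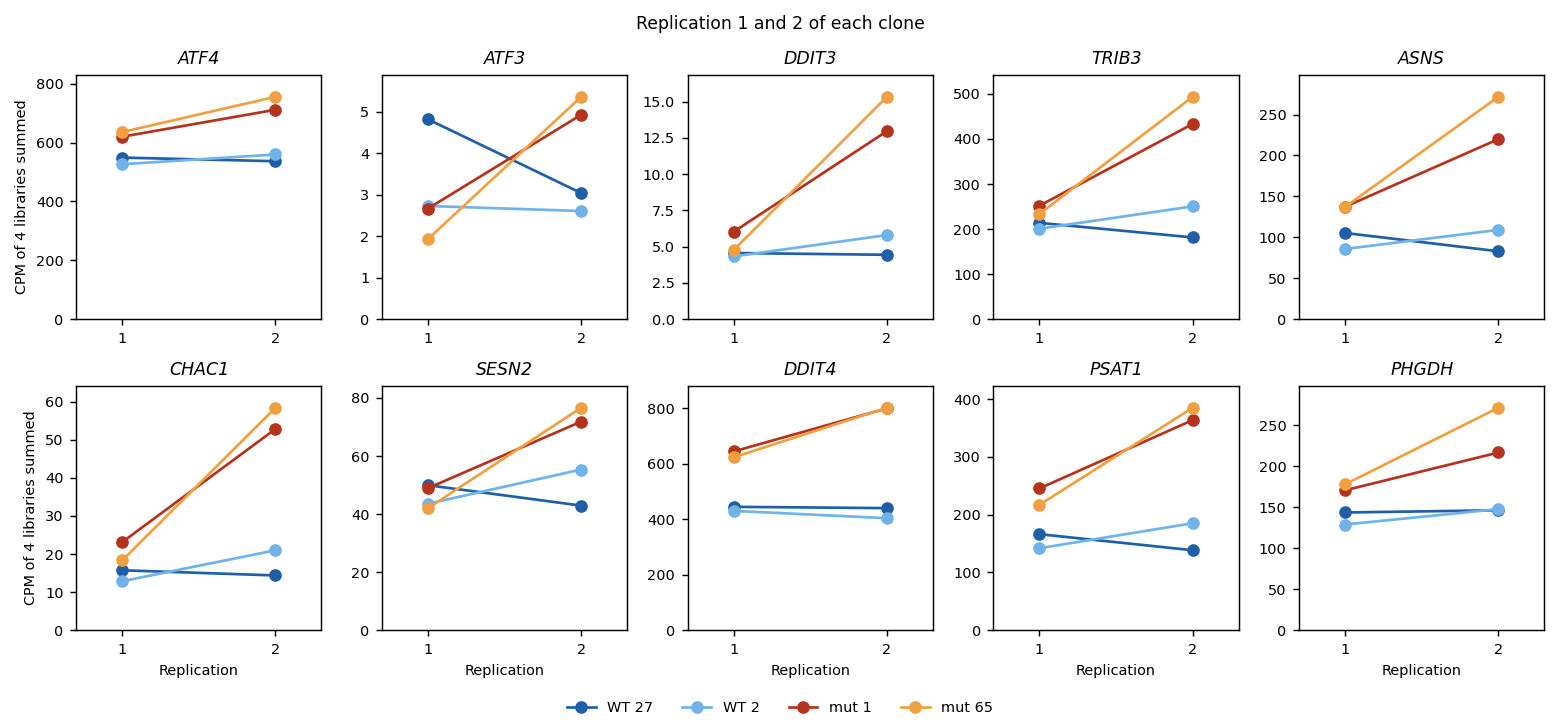
CPM of each gene with the 4 libraries of a series summed (linear axis from 0), for replication 1 and 2 of WT clones 27 and 2 (blue) and mut clones 1 and 65 (red, orange). Each point is 1 series and each line 1 clone; all 10 genes are higher in replication 2 in both mut clones, whereas the WT lines go both ways or stay level.

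Fitted over single libraries with limma-voom, replication 2 was higher than replication 1 in mut for 10 of the 10 genes (adjusted p under 0.05), where 2.66% of all tested genes were higher. The log2 difference averaged over the 4 treatments was 1.58 ± 0.20 (SE) for CHAC1, 1.44 ± 0.19 for DDIT3, 1.28 ± 0.23 for ATF3, 0.94 ± 0.11 for TRIB3 and 0.86 ± 0.13 for ASNS, and it was lowest for DDIT4 (0.35 ± 0.07) and ATF4 (0.23 ± 0.04). In WT the same test called 0 of the 10 genes, where 5.59% of all genes were called in either direction, and 0 had an unadjusted p under 0.05; the quasi-likelihood test of edgeR also called 0. The difference between the genotypes in this step was called higher in mut for 7 genes (2.97% of all genes), and not for ATF4, DDIT4 and PHGDH. That count ranged from 3 to 10 when 1 library was left out, and was lowest without WT 24 h 27-1, WT 24 h 27-2 or WT 72 h 27-1. For this range the share of all genes is not given here. All these fits over single libraries count the 4 libraries of a series as separate samples, although they deviated together. With each series summed to 1 sample, 2 against 2, the log2 differences in mut were of the same size (CHAC1 1.43 ± 0.17, TRIB3 0.93 ± 0.15), but 0 of the 10 genes passed, with adjusted p from 0.0926 to 0.295, and 1 of all genes was called. Of the 5 epithelial markers 0 were called between the replications in mut and 3 were lower in replication 2 in WT, and of the 3 tested markers of other cell types 0 were called in mut and 1 was higher in WT; their part was not tested. The labels and the study do not say whether a replication number marks a day or batch shared by the clones, and this comparison was made after the values were seen.

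The order of levels per kilobase of transcript was the same at its upper end in both genotypes. In solvent, DDIT4 (406 CPM per kb in WT, 499.5 in mut) and ATF4 (380 in WT, 481 in mut) were highest, PSAT1, PHGDH and TRIB3 followed at 90.2 to 97.6 CPM per kb in WT, and DDIT3 and ATF3 were lowest at 4.83 and 1.04 CPM per kb in WT. The neighbours DDIT4 and ATF4, and PHGDH and TRIB3, did not differ beyond their spread in WT solvent.

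**Figure D2:**
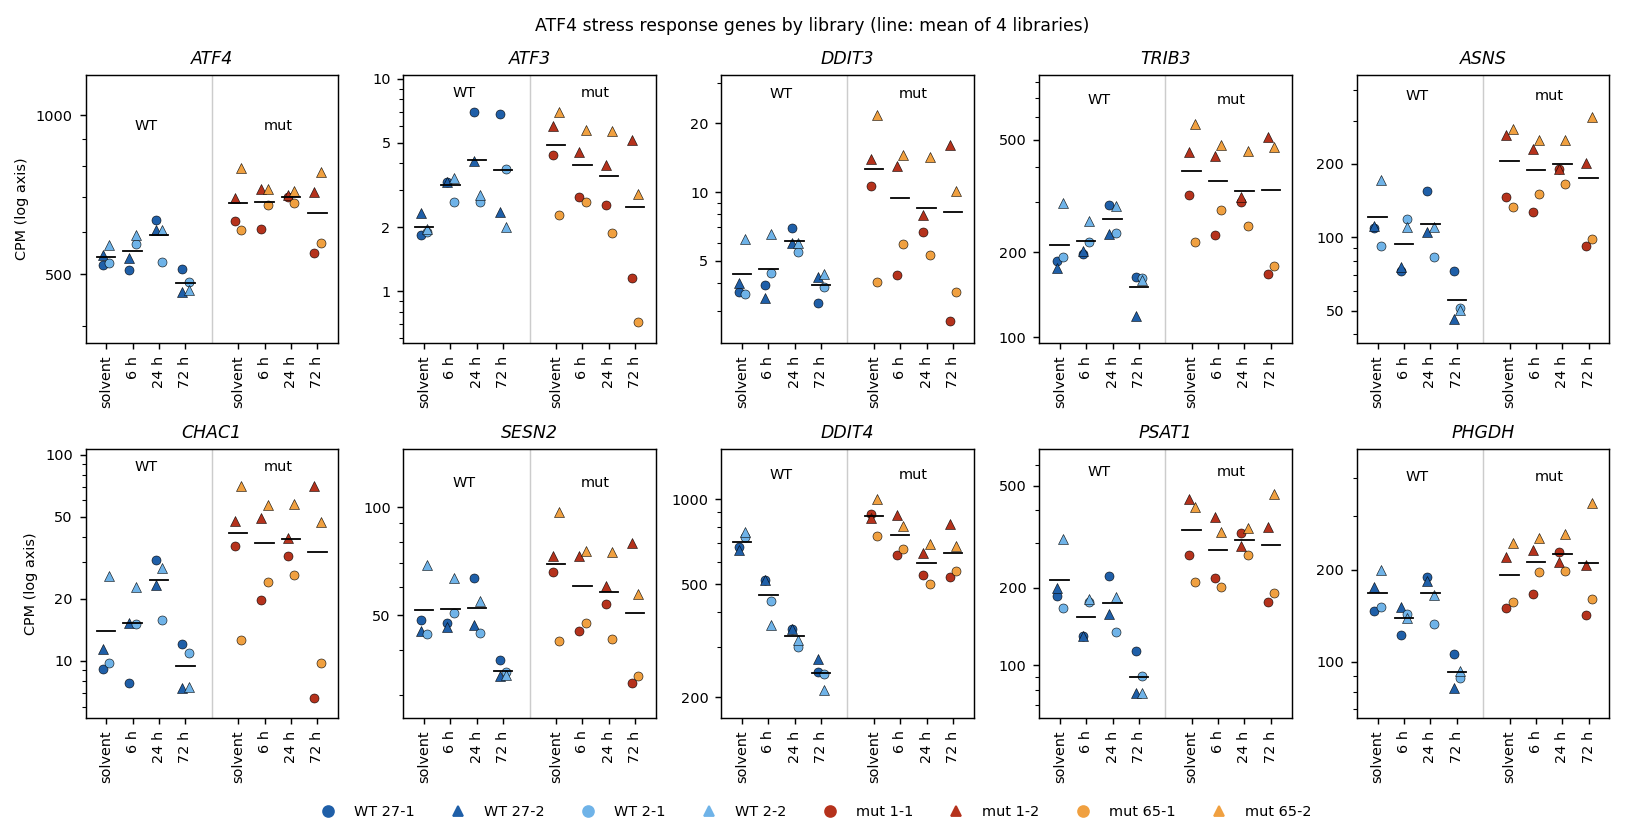
CPM of the 10 genes in each of the 32 libraries on log axes, with WT on the left and mut on the right of each panel, colour for the clone, circles for replication 1 and triangles for replication 2; lines are means of 4 libraries. DDIT4 falls step by step with time in WT, and the triangles of mut lie above the circles for most genes.

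Next, the response of the WT clones to TGFβ1 was examined. The clearest change was in DDIT4, also known as REDD1, an inhibitor of mTORC1 that stress and glucocorticoids induce. It had 677, 661, 732 and 763 CPM in WT solvent (27-1, 27-2, 2-1, 2-2), 519, 519.5, 436 and 361 CPM after 6 h, 349, 348, 299 and 317 CPM after 24 h, and 245, 273, 240 and 212 CPM after 72 h. No library at any time overlapped with solvent, a feature that was not set beside the other genes. Its log2 fold change came to -0.64 ± 0.13 after 6 h (adjusted p = 0.00103), -1.11 ± 0.13 after 24 h (adjusted p = 5.91e-08) and -1.55 ± 0.13 after 72 h (adjusted p = 2.75e-10), which is 2.93-fold lower than solvent at the last time.

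DDIT4 was the only member called at 6 h, against 11.9% of all genes called lower, and at 24 h, against 38% of all genes. After 72 h 4 members were lower, where 38.4% of all genes were. Besides DDIT4 these were the 3 enzymes of amino acid synthesis. PSAT1, the aminotransferase of the serine pathway, went from 187, 200, 166 and 309 CPM in solvent to 113, 78.2, 91.0 and 78.1 CPM (log2 -1.23 ± 0.27, adjusted p = 0.000378). ASNS, which makes asparagine, went from 109, 112, 91.7 and 171 CPM to 72.8, 46.0, 51.2 and 50.4 CPM (log2 -1.12 ± 0.33, adjusted p = 0.00529). PHGDH, the first enzyme of serine synthesis, went from 147, 176, 151 and 200 CPM to 106, 82.2, 88.9 and 93.7 CPM (log2 -0.85 ± 0.19, adjusted p = 0.000464). For all 3 enzymes each library at 72 h lay below each solvent library. How many of all genes were separated in this way is not given here.

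The other members were not called in WT. ATF4 itself had 522, 544, 525 and 567 CPM in solvent and 512, 463, 483 and 466 CPM at 72 h (log2 -0.16 ± 0.09, adjusted p = 0.12). At 24 h the log2 values of ATF3, a stress-induced bZIP repressor, and of CHAC1 were 0.99 ± 0.50 and 0.94 ± 0.64, with ATF3 at 6.99, 4.11, 2.63 and 2.84 CPM against 1.85, 2.33, 1.89 and 1.97 CPM in solvent. Scaling by library size put the all-gene median of the log2 fold change at -0.18 at 24 h and -0.19 at 72 h in WT, whereas TMM factors brought it to 0.00 and -0.03. With TMM factors all 4 calls at 72 h held (ASNS -0.95, DDIT4 -1.39, PSAT1 -1.07, PHGDH -0.69), and ATF4 was called higher at 24 h (log2 0.31, adjusted p = 0.00599), while all genes called at 72 h split into 3189 higher and 3459 lower in place of 2061 and 5705.

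The series numbers pair the libraries of a clone, and a model with the series as a replicate block raised the number of called members in WT from 1 to 3 at 24 h and from 4 to 8 at 72 h. In the same model 59.6% and 60% of all genes were called in either direction. At 24 h it added ATF3 (log2 1.09 ± 0.30, adjusted p = 0.00267) and CHAC1 (log2 0.89 ± 0.38). At 72 h it added ATF4 (log2 -0.16 ± 0.07), TRIB3 (log2 -0.47 ± 0.15) and SESN2 (log2 -0.55 ± 0.14) as lower and ATF3 as higher (log2 0.87 ± 0.31). The value of ATF4 stood beside an all-gene median of -0.19.

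For the mut clones the comparison of TGFβ1 with solvent was made in the same way, first without a replicate block. At 6 h 0 of the 10 genes were called by limma-voom, edgeR or DESeq2, and 0 had an unadjusted p under 0.05, where 7% of all genes were called. At 24 h and at 72 h DDIT4 alone was called lower, against 17.1% and 16.3% of all genes. DDIT4 had 883, 858, 743 and 1000 CPM in mut solvent (1-1, 1-2, 65-1, 65-2), 539, 643, 500.5 and 694 CPM at 24 h (log2 -0.56 ± 0.13, adjusted p = 0.00307) and 532, 816, 556 and 685 CPM at 72 h (log2 -0.44 ± 0.13, adjusted p = 0.0154). The drop at 72 h was not called with TMM factors (log2 -0.37 ± 0.13, adjusted p = 0.0501) or edgeR.

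The other members of the mut clones spread widely within a group. In mut at 72 h TRIB3, a pseudokinase that restrains ATF4 activity, had 167 and 179 CPM in the replication 1 libraries and 510 and 469 CPM in those of replication 2, against 319, 452, 217 and 566 CPM in solvent. CHAC1 likewise had 6.64 and 9.78 CPM against 70.5 and 47.3 CPM. With the series block 4 members were called lower in mut at 72 h, against 22.9% of all genes in that model, namely DDIT4, ATF3 (log2 -1.04 ± 0.28), DDIT3 (log2 -0.67 ± 0.23) and SESN2 (log2 -0.48 ± 0.13). The count without a block was 4 without mut solvent 65-1, 3 without mut 72 h 1-2 and 0 without mut solvent 65-2, mut 72 h 1-1 or mut 72 h 65-1. These counts stand without the share of all genes called in the same fits.

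Whether the response itself differed between the genotypes was tested as the mut change minus the WT change. No member was called by limma-voom at 6 h or 24 h, where 0.074% and 9.65% of all genes were called. An unadjusted p under 0.05 was seen for 1 and 2 members, without a share of all genes at that threshold. Both edgeR and DESeq2 called 0 at both times. At 72 h, 2 members had a higher value in mut, against 9.4% of all genes. These were DDIT4 (difference of log2 changes 1.11 ± 0.19, adjusted p = 0.000383) and PHGDH (0.93 ± 0.27, adjusted p = 0.0213). PHGDH had 150, 220, 156 and 245 CPM in mut solvent and 143, 207, 160 and 330 CPM at 72 h, a log2 change of 0.07 ± 0.19, and its call was lost without WT solvent 2-2. With the series block the number rose to 3 at 24 h (ATF3 -1.58 ± 0.39, DDIT3 -1.06 ± 0.37, DDIT4 0.55 ± 0.12) and to 5 at 72 h, where ASNS (0.79 ± 0.28) and PSAT1 (1.00 ± 0.25) joined as higher and ATF3 (-1.91 ± 0.42) as lower. That model called 18.7% and 23.5% of all genes in either direction.

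**Figure D3:**
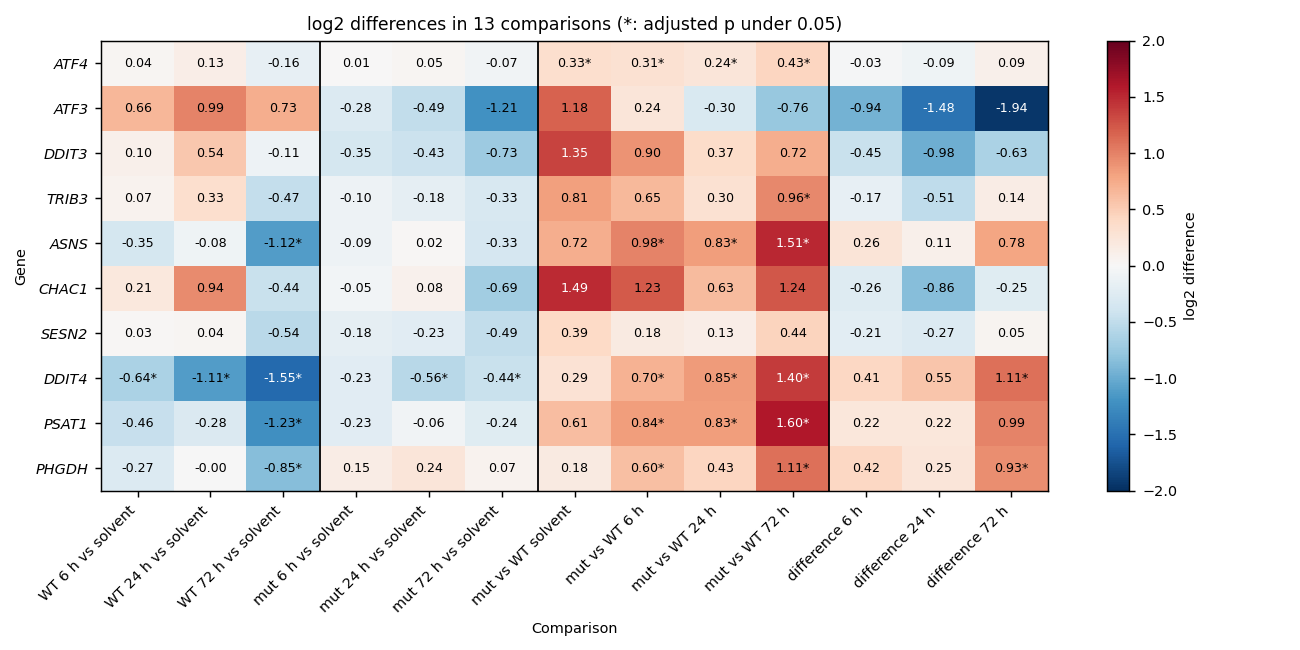
Heat map of the log2 differences of the 10 genes (rows) in 13 comparisons (columns), coloured from -2 (blue) to 2 (red), with an asterisk where the limma-voom adjusted p was under 0.05; the last 3 columns are the mut change minus the WT change. In the block of mut against WT, ATF4 has an asterisk in all 4 columns, and DDIT4, ASNS and PSAT1 in the 3 columns with TGFβ1.

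A further question was how the genotypes differed at equal treatment. ATF4 transcript was higher in mut in all 4 states, by a small amount. It had 522 to 567 CPM in WT solvent against 632, 699, 606 and 796 CPM in mut solvent, and 463 to 512 CPM against 549, 715, 572 and 780 CPM at 72 h. The genotypes did not overlap in any state, and how common this was among all genes is not given here. The log2 difference was 0.33 ± 0.09 in solvent (adjusted p = 0.0117), 0.31 ± 0.09 at 6 h, 0.24 ± 0.09 at 24 h and 0.43 ± 0.09 at 72 h (adjusted p = 0.000349). With TMM factors the value at 24 h was 0.16 ± 0.09 and not called.

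In solvent ATF4 was the only member called higher in mut, where 6.38% of all genes were. An unadjusted limma-voom p under 0.05 was found for 8 of the 10, and the share of all genes at that threshold is not given here. CHAC1 had 36.0, 47.6, 12.6 and 70.8 CPM in mut solvent against 9.10, 11.5, 9.82 and 25.7 CPM in WT, with the low mut value in 65-1 and the high WT value in 2-2 (log2 1.49 ± 0.62, adjusted p = 0.115). DDIT3, the proapoptotic bZIP factor CHOP, had 10.6, 13.9, 4.02 and 21.8 CPM against 3.65, 3.99, 3.58 and 6.22 CPM (log2 1.35 ± 0.52, adjusted p = 0.0894). The count rose to 6 without mut solvent 65-1 and to 2 without WT solvent 2-2, and fell to 0 without mut solvent 65-2. For these left-out libraries the share of all genes called is not given here. With the replication number as a block the count was 4, against 7.28% of all genes, with DDIT3 (1.43), TRIB3 (0.81) and CHAC1 (1.52) added.

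Under TGFβ1 more members were called higher in mut, 5 at 6 h (11.3% of all genes), 4 at 24 h (24.7%) and 6 at 72 h (26%). DDIT4 had 519, 519.5, 436 and 361 CPM in WT and 632, 881, 666 and 802 CPM in mut at 6 h, and its log2 difference reached 0.70 ± 0.13 at 6 h, 0.85 ± 0.13 at 24 h and 1.40 ± 0.13 at 72 h (adjusted p = 4.74e-09). In solvent, where DDIT4 was 0.29 ± 0.13 higher on the log2 scale, the difference was not called. At 72 h the lowest mut library had 532 CPM and the highest WT library 273 CPM.

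The enzymes of amino acid synthesis were also higher in mut at 72 h. PSAT1 had 176, 346, 192 and 462 CPM in mut against 78.1 to 113 CPM in WT (log2 1.60 ± 0.27, adjusted p = 2.83e-05). ASNS had 92.2, 201, 98.2 and 310 CPM against 46.0 to 72.8 CPM (log2 1.51 ± 0.32, adjusted p = 0.000494). PHGDH had 143 to 330 CPM against 82.2 to 106 CPM (log2 1.11 ± 0.19, adjusted p = 3.8e-05). The genotypes did not overlap for any of the 3, but the share of all genes without such overlap is not given here. All 3 were also called at 6 h (ASNS 0.98, PSAT1 0.84, PHGDH 0.60), and ASNS (0.83) and PSAT1 (0.83) at 24 h, where ASNS was not called with TMM factors (0.74, adjusted p = 0.0641).

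TRIB3 was called at 72 h (log2 0.96 ± 0.31, adjusted p = 0.0138), with mut libraries at 167 to 510 CPM and WT libraries at 119 to 164 CPM, and its call was lost without mut 72 h 1-2 or without mut 72 h 65-2. CHAC1, DDIT3 and SESN2, a leucine sensor upstream of mTORC1, had log2 values of 1.24 ± 0.69, 0.72 ± 0.56 and 0.44 ± 0.26 and were not called, nor was ATF3 (-0.76 ± 0.50). The count at 6 h was 2 without WT 6 h 27-1, mut 6 h 1-2 or mut 6 h 65-2 and 3 without WT 6 h 27-2, and that at 24 h was 1 without WT 24 h 2-1 and 2 without mut 24 h 1-1, 1-2 or 65-2. At 72 h it stayed between 5 and 7 over all single libraries left out. All of these counts stand without the share of all genes called in the same fits.

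Since the mut libraries differed by replication, each comparison of the genotypes was repeated within each replication, with 2 libraries per genotype. At 72 h within replication 2, 9 of the 10 members were called higher in mut, where 17.5% of all genes were, with log2 differences of 2.96 ± 0.49 for CHAC1, 2.38 ± 0.28 for ASNS, 2.36 ± 0.23 for PSAT1, 1.83 ± 0.23 for TRIB3 and 1.64 ± 0.15 for DDIT4. Within replication 1, 3 were called higher, against 13.9% of all genes, namely DDIT4 (1.17 ± 0.15), PSAT1 (0.85 ± 0.23) and PHGDH (0.64 ± 0.18). ATF3 was called lower there (-2.45 ± 0.57), as were 8.17% of all genes. TRIB3 and CHAC1 had 0.09 ± 0.23 and -0.54 ± 0.56 within replication 1. The difference between the replications was itself called for TRIB3 alone at 72 h (1.74 ± 0.32, adjusted p = 0.0316), with 0.0942% of all genes called higher, while CHAC1 had 3.50 ± 0.74 (adjusted p = 0.069).

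In solvent, limma-voom called 7 members higher within replication 2, against 4.14% of all genes, and 0 within replication 1, against 1.78%. Within replication 1, 3 members had an unadjusted p under 0.05, and the share of all genes at that threshold is not given here. At 6 h, 0 members were called within replication 1, where 6 had an unadjusted p under 0.05, and 8 were called within replication 2. The shares of all genes at 6 h are not given here. No other tool was run within replications. DDIT4 and PSAT1 were called higher in mut at 24 h and 72 h within both replications; at 24 h 8.66% of all genes were called higher within replication 1 and 16.4% within replication 2.

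**Figure D4:**
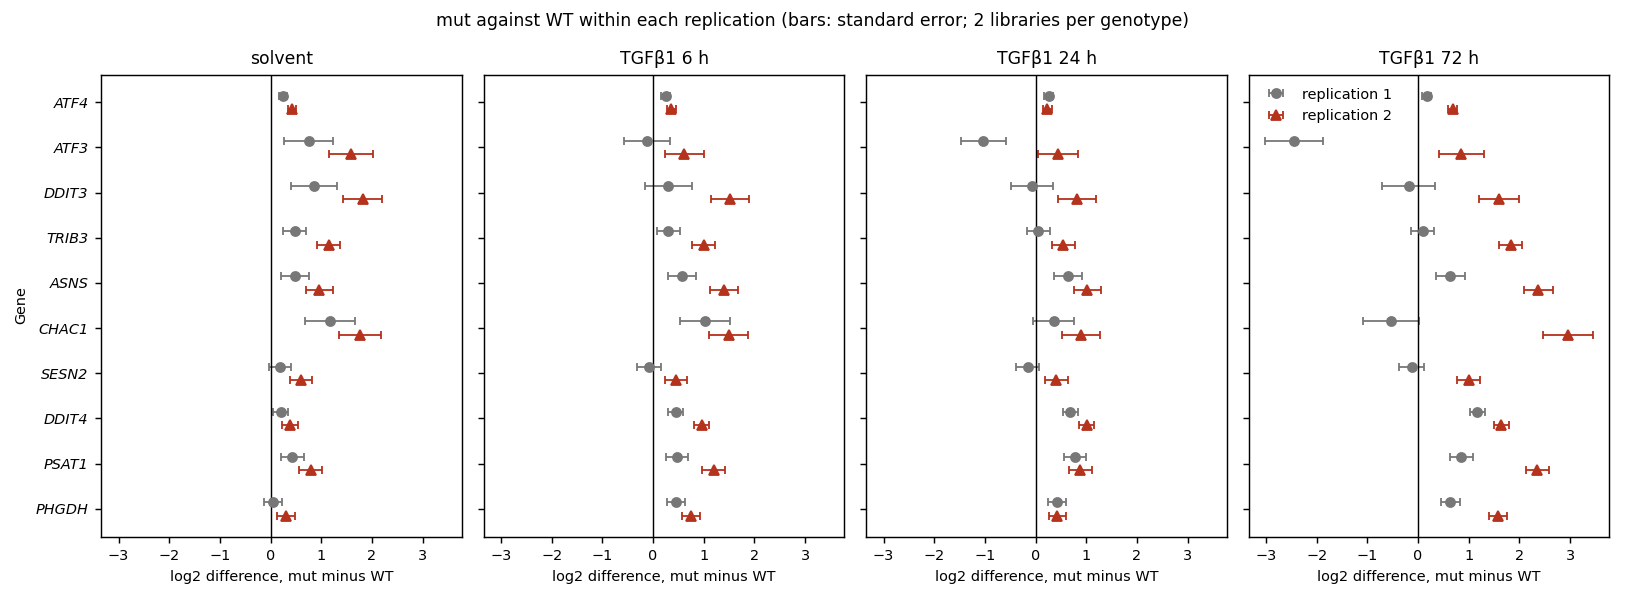
log2 difference of mut minus WT (horizontal axis, 1 panel per treatment) for each gene within replication 1 (grey circles) and replication 2 (red triangles), with standard errors from limma-voom on 2 libraries per genotype. At 72 h the 2 replications are farthest apart for CHAC1 and ATF3, and DDIT4 lies above 1 in both.

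Other genes of the pathway were taken from lists. The counts for mut against WT at 72 h stand beside 26% of all genes called higher and 13.2% called lower. In mut against WT at 72 h, 9 of 12 further genes of amino acid synthesis were higher and 0 lower (median log2 difference 0.57, against 0.10 over all genes), with PSPH, the last enzyme of serine synthesis, at 1.11 ± 0.21, ALDH1L2 at 0.89 ± 0.20 and GPT2 at 0.83 ± 0.21. Of 13 aminoacyl-tRNA synthetases 11 were higher and 0 lower (median 0.40), led by IARS1 (0.61 ± 0.08) and EPRS1 (0.56 ± 0.08); with TMM factors 7 were higher. Of 10 amino acid transporters 6 were higher (median 0.47), among them the cystine carrier SLC7A11 (1.20 ± 0.38). Of 11 partners and secreted targets 4 were higher and 1 lower, with STC2 at 1.64 ± 0.44 and GDF15 at 1.48 ± 0.35.

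The list of genes upstream of ATF4 held 9 genes, namely the eIF2α kinases, eIF2α, its phosphatase subunits, the kinase activator GCN1 and DELE1, which relays mitochondrial stress to the kinase HRI. Of these 9, 1 was higher in mut at 72 h (DELE1, 0.29 ± 0.07) and 1 was lower (EIF2AK3, the kinase PERK, -0.35 ± 0.11), with a median of 0.00. Of 16 genes listed for the endoplasmic reticulum, mainly chaperones and degradation factors, 2 were higher and 1 lower (median -0.01). Among the lists that share single members with other pathways, 5 of 6 glucocorticoid receptor targets were higher (TSC22D3 1.78 ± 0.22, ZBTB16 1.42 ± 0.19), as were 5 of 10 p53 targets, with 3 lower, and 1 of 7 hypoxia targets was higher and 1 lower. DDIT4 is a known target of the glucocorticoid receptor, p53 and hypoxia, and their part in its difference was not tested. Among the cell type markers, KRT5 (0.62 ± 0.10) and DCN (1.63 ± 0.28) were higher and CD68 (-1.02 ± 0.19) was lower in mut at 72 h, and their part was not tested either.

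TGFβ1 at 72 h lowered 8 of the 12 amino acid synthesis genes in WT and raised 0 (median -0.54 against -0.19 over all genes), and 4 were lower with TMM factors. Over all genes 38.4% were called lower and 13.9% higher in this comparison. Of the tRNA synthetases 7 of 13 were lower (median -0.41), of the transporters 2 of 10, SLC3A2 (-0.68 ± 0.13) and SLC7A5 (-0.66 ± 0.11), which form the leucine carrier. The endoplasmic reticulum list went the other way, with 9 of 16 genes higher and 0 lower (HERPUD1 0.65 ± 0.15, CALR 0.41 ± 0.07), and EIF2AK3 was higher as well (0.67 ± 0.12). In mut at 72 h 2 of the 12 synthesis genes, 2 of the 13 synthetases and 0 of the 10 transporters were lower, against 16.3% of all genes.

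The lists were also counted for the step between the replications of mut, where 2.66% of all genes were higher. Replication 2 was higher for 9 of 10 transporters (SLC7A11 0.99 ± 0.17, SLC1A4 0.92 ± 0.11), 11 of 13 tRNA synthetases (GARS1 0.53 ± 0.06), 5 of 12 synthesis genes (MTHFD2 0.63 ± 0.08) and 8 of 11 partners and secreted targets (VLDLR 1.43 ± 0.20, STC2 1.27 ± 0.18), with 1 lower. Upstream, 1 of 9 genes was higher, PPP1R15A (0.68 ± 0.11), which encodes the stress-induced phosphatase subunit GADD34 and is itself a target of ATF4. Of the endoplasmic reticulum list 3 of 16 were higher (XBP1 0.63 ± 0.08), of the p53 list 1 of 10, and 0 of 6 glucocorticoid and 0 of 7 hypoxia targets. The same limma-voom fit called 0 genes of these 9 lists in WT. These counts treat the libraries of a series as separate samples, as above.

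Finally, the members were compared with each other and with the other genes over the 32 libraries, which share clones, treatments and depth, so that the values are descriptions. On log2 CPM, Pearson's r between ASNS and PSAT1 was 0.98, between TRIB3 and CHAC1 0.96, and between ATF4 and ASNS 0.95. After subtraction of the group means these were 0.97, 0.95 and 0.93. The subtraction leaves in the step between the replications of mut, where all 10 genes were higher in replication 2. How much of these values comes from that step was not tested. The lowest values without subtraction of group means were those of ATF3, at 0.09 with DDIT4, 0.27 with PHGDH and 0.30 with PSAT1. Its highest was 0.66 with SESN2. DDIT4 went least with the others once group means were removed (0.49 with ASNS and PSAT1), apart from 0.70 with ATF3. The genes most like ATF4 among 9637 candidates were SARS1 (r = 0.97), CARS1 (0.94), IFRD1 (0.94), PCK2 (0.94) and SLC1A4 (0.93), and those most like the mean of the standardised members were GPT2 (0.98), STC2 (0.97), SARS1 (0.97), IFRD1 (0.96) and MTHFD2 (0.96).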

How the data were processed

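RNA was sequenced on a NovaSeq after preparation with the TruSeq RNA v2 kit, which keeps no strand. The authors trimmed reads with Trimmomatic and used STAR on the Ensembl GRCh38 genome for mapping and counting; versions and strand use are not given in the sources used here. The deposited values are raw read counts per gene and library, and 0 columns were left unused. GENCODE 44 named 17763 of 17788 genes and gave coordinates and canonical transcript lengths. CPM is counts per 1000000 counts of the library.

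Groups came from the labels. The study calls the replications independent, and each library counted as 1 sample, so that p-values measure the spread between these libraries. No 2 libraries of a group agreed within sampling noise (chi-square per degree of freedom at least 12.0). That check cannot tell whether 2 replications of 1 clone are independent samples of a genotype. Each group held 2 clones in 2 replications, so the p-values do not measure how far clones of a genotype spread. After a low-count filter (filterByExpr in edgeR 4.0.16, with at least 10 counts per library and 15 in total as its settings), genes were fitted with limma 3.58.1 voom in R 4.3.3, with library-size scaling and ~0 + condition over all 32 libraries, as in the study's methods. Calls are two-sided with a Benjamini-Hochberg adjusted p under 0.05 over 14865 genes, in 13 comparisons. Replications were compared with 16 groups of 2 libraries. All adjusted p-values are from limma-voom unless another tool is named. The fits were tested on simulated data. Alternatives were TMM factors, edgeR's quasi-likelihood test, DESeq2 1.42.0, other low-count filters, fits on the compared groups, replicate blocks, sums of the replications of a clone and left-out libraries or series; those within replications, the replication comparisons with their alternatives, and blocks with TMM factors or by replication number for mut against WT were added after seeing the data.

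Libraries of a series share a clone and replication number in the labels, and their deviations from the group means correlated at a median r of 0.505 (-0.078 to 0.849; over 0.1 in 46 of 48 pairs). Named were all members, JUNB, at most 3 called genes of a list with the largest change and a mean of at least 5 CPM, and the 5 genes most correlated (mean of at least 10 CPM). The members, lists and tests were chosen with earlier results of these data known. Reads carry no molecular identifiers, so the floor of 3 counts covers counting error only.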

Additional observations from a re-analysis of the deposited data

Results flagged for a closer look

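In 3 of the 80 combinations of gene and group, 1 of the 4 libraries lay far from the others on the log2 scale, where chance alone flags about 1 in 20. TRIB3 in WT 72 h was lowest in 27-2 (119 CPM), whose gap to the next library took 0.929 of the range. TRIB3 in WT solvent was highest in 2-2 (297 CPM, 0.832 of the range), and ATF3 in WT 6 h was lowest in 2-1 (2.64 CPM, 0.839 of the range). The difference of the TGFβ1 changes at 72 h between the genotypes passed its own limma-voom test for DDIT4 (1.11 on the log2 scale, adjusted p = 0.000383) and PHGDH (0.93, adjusted p = 0.0213), with values higher in mut. Over all genes 9.4% were called higher in this difference, and the PHGDH call was lost without WT solvent 2-2.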

How the results depend on the processing

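Over 4070 recomputed values of single members, none that was called turned direction, 127 lost their call and 134 gained one. The counts of called members below stand without the share of all genes called in the same setting. That share is given above for some settings only. A change in such a count is therefore not by itself a result about the members. Without a low-count filter or with a mean count of at least 50 the number of called members was as reported in every comparison. In WT at 24 h, 1 call became 2 with TMM factors, 3 with edgeR, DESeq2 and within replication 1, and 4 with only the compared groups or with clone sums; only the compared groups also gave 2 at 6 h and 7 at 72 h, and within replication 2 it was 7 at 72 h. In mut at 72 h, 1 call became 0 with TMM factors, edgeR and within replication 2 (which also gave 0 at 24 h) and 3 with clone sums. For mut against WT in solvent, 1 became 2 with edgeR, 4 with DESeq2, 8 with clone sums, and 0 and 7 within replications 1 and 2; at 6 h, 5 became 8 with clone sums, 0 and 8 within replications 1 and 2, 3 without series 27-2 and 1 without series 1-2; at 24 h, 4 became 2 with TMM factors, edgeR, DESeq2 and without either series. The difference of changes had 1 call at 24 h and 1 at 72 h with only the compared groups, and 1 at 72 h without series 27-2. Summing the libraries of a series took the replication step from 10 to 0 calls in mut and its difference between genotypes from 7 to 0, with fewer samples by construction; the cause of the other shifts was not tested.

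The series as a replicate block gave 3 calls at 24 h and 8 at 72 h in WT, 4 at 72 h in mut, and 3 and 5 in the difference at 24 and 72 h; it changed no other call of a member. Together with TMM factors it gave 5 at 24 h in WT, 2 and 3 at 24 and 72 h in mut, and 3 and 4 in the difference. The replication number as a block gave 4 for mut against WT in solvent and 1 for the difference at 24 h.

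With each library left out in turn, counts ranged from 0 to 4 in mut at 72 h, for mut against WT from 0 to 6 in solvent, 2 to 5 at 6 h, 1 to 4 at 24 h and 5 to 7 at 72 h, for the difference from 0 to 1 at 24 h and 1 to 3 at 72 h, and from 3 to 10 for the replication step between genotypes. The other counts did not move. Every member had at least 30 counts in every library.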
